A study of Mus musculus with 2 samples.

Results

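The genes described here encode the proteins of the cytosolic ribosome. They were chosen by symbol in the GENCODE M21 annotation: every protein-coding gene whose symbol starts with Rpl or Rps and a digit, with Rplp0, Rplp1, Rplp2 and Rpsa, and without symbols that carry -ps (pseudogenes) or name the kinases Rps6k. This gave 86 of 21853 protein-coding genes. Of these, 46 are proteins of the large subunit and 31 of the small subunit, 77 subunit genes in all. The other 9 are paralogs or genes with a like name, which were set apart by symbol. The rule itself uses symbols only.

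A ribosome is built from ribosomal RNA and a copy of nearly every ribosomal protein, so the proteins are needed in like amounts and their genes are active in every cell type. Their messages typically begin with a C and a run of pyrimidines (the TOP motif), through which the kinase complex mTORC1 and the binding protein Larp1 control translation. Promoters of these genes are known for binding sites of ETS factors such as GABP and of SP1 and YY1, and many of the genes carry small nucleolar RNAs (snoRNAs), guides for modifying ribosomal RNA, in their introns.

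Chromatin accessibility was measured by DNase-seq, in which DNase I cuts DNA that is free of nucleosomes and the cut ends are sequenced. The tissue, called hippocampus in 1 label and a layer of it in another, came from female B6CASTF1/J mice (F1 hybrids of C57BL/6J and CAST/EiJ) aged 2 months. There was 1 group with 2 libraries, named biological replicates 1 and 2, and the labels do not say whether different animals were used, so their spread may be technical. With 1 group there was no comparison between conditions and no test across libraries. Values are therefore given per library, and shares over the ribosomal protein genes stand beside the same share over all protein-coding genes.

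Replicate 1 had 129779 peaks and 227153 footprints, and replicate 2 had 71895 peaks and 118610 footprints. A footprint is a short stretch inside accessible DNA that is cut less than its surroundings, as a bound protein would leave it. The peak value is the authors' signal, scaled to each library on a scale that is not stated. Read depth is not stated either, and no interval from counting was given. All 12 markers of hippocampal excitatory neurons had a promoter peak in both libraries, and Alb, Hoxa2 and Acta1, markers of other tissues, had none. Of 3 markers each, interneurons and astrocytes had 1 with a peak in both libraries, oligodendrocytes and choroid plexus 2, and microglia and endothelium 0. In replicate 1 alone microglia had 2 of 3 and endothelium 1 of 3. The part of each cell type in the values below was not tested.

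The promoter sequences of 8 subunit genes are shown because they are the 3 with the highest peak values (Rplp0, Rpl13a and Rpl23) and, by mean value, 5 of the next 6 that hold a searched core under a footprint of both libraries. Each runs 5′ to 3′ in the direction of transcription, from 100 bases before the main start to 20 bases from it, where the main start is that of the gene's principal GENCODE transcript. Sequence was read from RefSeq's GRCm38 assembly. Capitals mark the cores that were searched on both strands: CCGGAAG and CGGAAG (ETS), GATGGCG (YY1), TATAAA (TBP), GGGCGG (SP/KLF), CCAAT (NF-Y), GCGCATGCG (NRF1), TGACGTCA (CRE), CACGTG (E-box) and TCTCGCGA, which was added after the data were seen. CGGAAG is contained in CCGGAAG, so their counts overlap, and copies of TCTCGCGA on opposite strands can overlap. These were 10 cores in all.
Rplp0 (GRCm38 chr5:115559367-115559486, plus strand): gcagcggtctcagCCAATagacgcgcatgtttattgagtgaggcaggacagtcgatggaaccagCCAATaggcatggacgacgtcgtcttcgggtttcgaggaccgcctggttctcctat
Rpl13a (GRCm38 chr7:45128742-45128861, minus strand): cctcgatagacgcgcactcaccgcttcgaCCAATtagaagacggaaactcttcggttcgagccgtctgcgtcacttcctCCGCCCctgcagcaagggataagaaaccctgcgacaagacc
Rpl23 (GRCm38 chr11:97782418-97782537, minus strand): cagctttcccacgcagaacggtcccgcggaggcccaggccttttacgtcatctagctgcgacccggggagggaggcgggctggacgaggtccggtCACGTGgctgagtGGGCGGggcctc
Rpl15 (GRCm38 chr14:18271048-18271167, minus strand): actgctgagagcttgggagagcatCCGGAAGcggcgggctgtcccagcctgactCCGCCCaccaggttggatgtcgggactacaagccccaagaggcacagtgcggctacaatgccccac
Rpl27a (GRCm38 chr7:109519047-109519166, plus strand): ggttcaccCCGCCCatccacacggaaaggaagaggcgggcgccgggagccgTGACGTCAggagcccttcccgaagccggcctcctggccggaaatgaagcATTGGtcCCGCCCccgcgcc
Rpl18 (GRCm38 chr7:45717971-45718090, plus strand): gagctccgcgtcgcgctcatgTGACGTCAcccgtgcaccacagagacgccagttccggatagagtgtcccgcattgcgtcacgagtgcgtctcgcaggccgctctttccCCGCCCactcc
Rpl7a (GRCm38 chr2:26910664-26910783, plus strand): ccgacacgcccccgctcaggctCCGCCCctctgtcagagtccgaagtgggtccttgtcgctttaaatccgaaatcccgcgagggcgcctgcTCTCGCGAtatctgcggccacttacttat
Rps2 (GRCm38 chr17:24720010-24720129, plus strand): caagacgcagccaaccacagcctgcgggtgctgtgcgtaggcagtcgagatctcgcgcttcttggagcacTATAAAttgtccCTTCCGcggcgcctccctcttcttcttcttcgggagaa

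At Rplp0 both libraries had a footprint over the CCAAT core at position -87, from -105 to -68 in replicate 1 and from -105 to -73 in replicate 2. Only replicate 1 had a footprint over its CCAAT core at -36. Positions count from the main start, which is 1, and the base before it is -1. At Rpl18 the TGACGTCA core at -79 lay under a footprint from -94 to -65 in each library, with the same ends to the base. At Rpl27a the TGACGTCA core at -49 lay under footprints from -57 to -41 and from -57 to -35. At Rpl7a a footprint from -33 to 6 in replicate 1 and from -34 to 6 in replicate 2 covered the TCTCGCGA core at -9 and the start itself. At Rps2 footprints from -36 to -12 and from -35 to -20 covered the TATAAA core at -30. At Rpl23 the longest footprint upstream of the start, from -64 to -36 and from -64 to -35, held none of the searched cores. Of the footprints named so far in both libraries, those at Rpl18, Rpl7a and Rpl23 had ends within 1 base of each other. Those at Rplp0, Rpl27a and Rps2 differed by more at 1 end. At Rpl13a the footprints over the SP/KLF core at -21 ran from -39 to -20 and from -29 to -20. At Rpl15 only replicate 1 had a footprint over the ETS core at -76. Some of these promoters were picked for a core under footprints of both libraries, so they do not measure agreement between libraries.

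Each of the 77 subunit genes carried a promoter peak in replicate 1 and in replicate 2. A promoter peak here is a peak that overlaps the 1 kb on either side of any start of a protein-coding transcript. With the 9 paralogs, 83 of 86 genes had one in replicate 1 against 63.4% of all protein-coding genes, 82 of 86 in replicate 2 against 60.4%, and 82 in both against 59%. The value of a gene was that of its highest promoter peak. Over the genes with a peak the median was 5.75 in replicate 1, against 3.10 over all protein-coding genes with one, and 4.20 against 2.78 in replicate 2. The median ribosomal protein gene stood at percentile 75.6 of all protein-coding genes with a promoter peak in replicate 1 and at 74.6 in replicate 2. Above the median of all genes lay 73 of 83 in replicate 1 and 69 of 82 in replicate 2, and within the top 10% of all genes 17 and 16. The highest promoter of any gene had 26.3 and 20.3, above every ribosomal protein gene. These are descriptions of 2 libraries with no test.

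**Figure D1:**
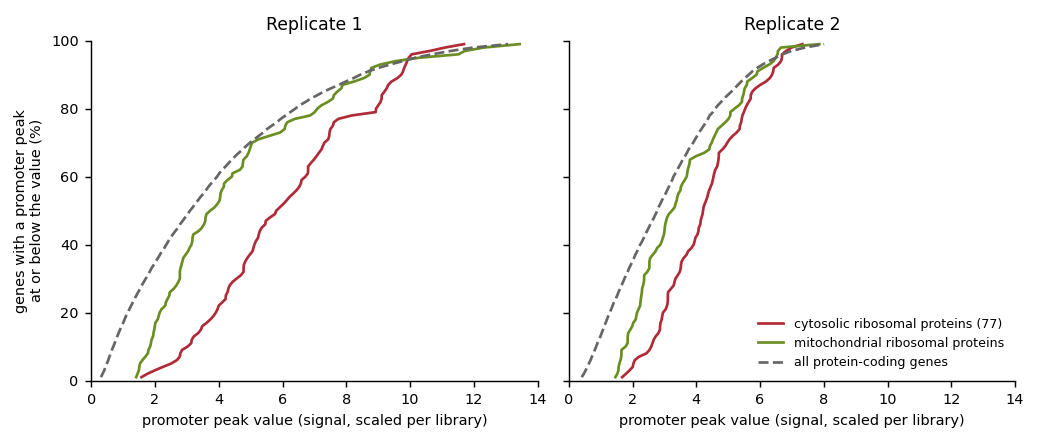
Cumulative share of genes with a promoter peak (y axis, percent) at or below each peak value (x axis, signal scaled per library) in replicate 1 (left) and replicate 2 (right). The curve of the 77 subunit genes lies right of all protein-coding genes over most of its range, with medians of 5.80 against 3.10 and 4.21 against 2.78, and that of the mitochondrial ribosomal proteins (3.73 and 3.23) lies between them at the median.

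Large subunit genes had medians of 5.47 in replicate 1 and 4.13 in replicate 2 (46 genes). Rplp0, the base of the stalk that recruits translation factors, was highest, with 12.7 in replicate 1 and 8.01 in replicate 2, a mean of 10.4 ± 3.32 (SD, n = 2), at percentiles 98.7 and 99 of all genes with a peak. It lies at chr5:115559467-115563727 on the plus strand, and its strongest peak at chr5:115559281-115559500 in replicate 1 reached over the start. Rpl13a, which also takes part in translational silencing of inflammatory messages, had 10.8 and 6.21 (8.53 ± 3.27, SD, n = 2). Rpl23, a protein of the large subunit that can bind the p53 regulator Mdm2, had 9.93 and 6.87 (8.40 ± 2.16, SD, n = 2). Rpl15 had 11.4 and 5.18 (8.28 ± 4.38, SD, n = 2), so that it stood second in replicate 1 but not in replicate 2. Rpl27a had 9.77 and 6.69 (8.23 ± 2.18, SD, n = 2), and Rpl37 had 9.44 and 6.41 (7.92 ± 2.14, SD, n = 2). Among these 6 genes replicate 1 was the higher library each time, and neighbours in the order of their means differed by less than the SD of either.

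Rpl18 had 9.89 in replicate 1 and 6.36 in replicate 2 (8.12 ± 2.5, SD, n = 2), but these come from different peaks. In replicate 1 the strongest peak had its middle at -2740.5 bp from the main start and 126.5 bp from another annotated Rpl18 start, and the nearest start of any gene was that of Sphk2, a sphingosine kinase. At the main start alone Rpl18 had 6.96 and 6.36. In the other 81 of the 82 genes with a peak in both libraries the strongest peaks of the libraries overlapped, against 92.8% of all protein-coding genes with a peak in both.

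Other large subunit genes ranged from just below these values to under the median of all genes. Rpl7a had 8.92 and 6.63, Rpl27 9.82 and 5.37, and Rpl31 8.93 and 5.79. The stalk proteins Rplp1 and Rplp2, which sit on Rplp0, had 6.79 and 3.97 and 5.15 and 4.23, below Rplp0 in each library. Rpl5 and Rpl11, which with 5S ribosomal RNA form the particle that binds Mdm2, had 6.09 and 4.55 and 5.26 and 3.12. Rpl4 was lowest by mean and in replicate 1, with 1.61 in replicate 1 and 1.71 in replicate 2 (1.66 ± 0.0731, SD, n = 2), at percentiles 28.4 and 29.2. Its strongest peak had its middle at -354.5 and -454.5 bp from the start, nearer to a start of Zwilch, a kinetochore gene that begins 271 bp away. Rpl4 hosts 5 snoRNAs. Rpl39 had 2.23 and 2.00 (2.12 ± 0.160, SD, n = 2), Rpl35a 1.90 and 2.61 (2.26 ± 0.502, SD, n = 2), and Rpl32 2.57 and 2.09 (2.33 ± 0.338, SD, n = 2). Rpl6 had 3.23 and 1.55, the lowest value of replicate 2. The lowest large subunit genes therefore lay under the median of all accessible promoters in both libraries, apart from Rpl6 in replicate 1.

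**Figure D2:**
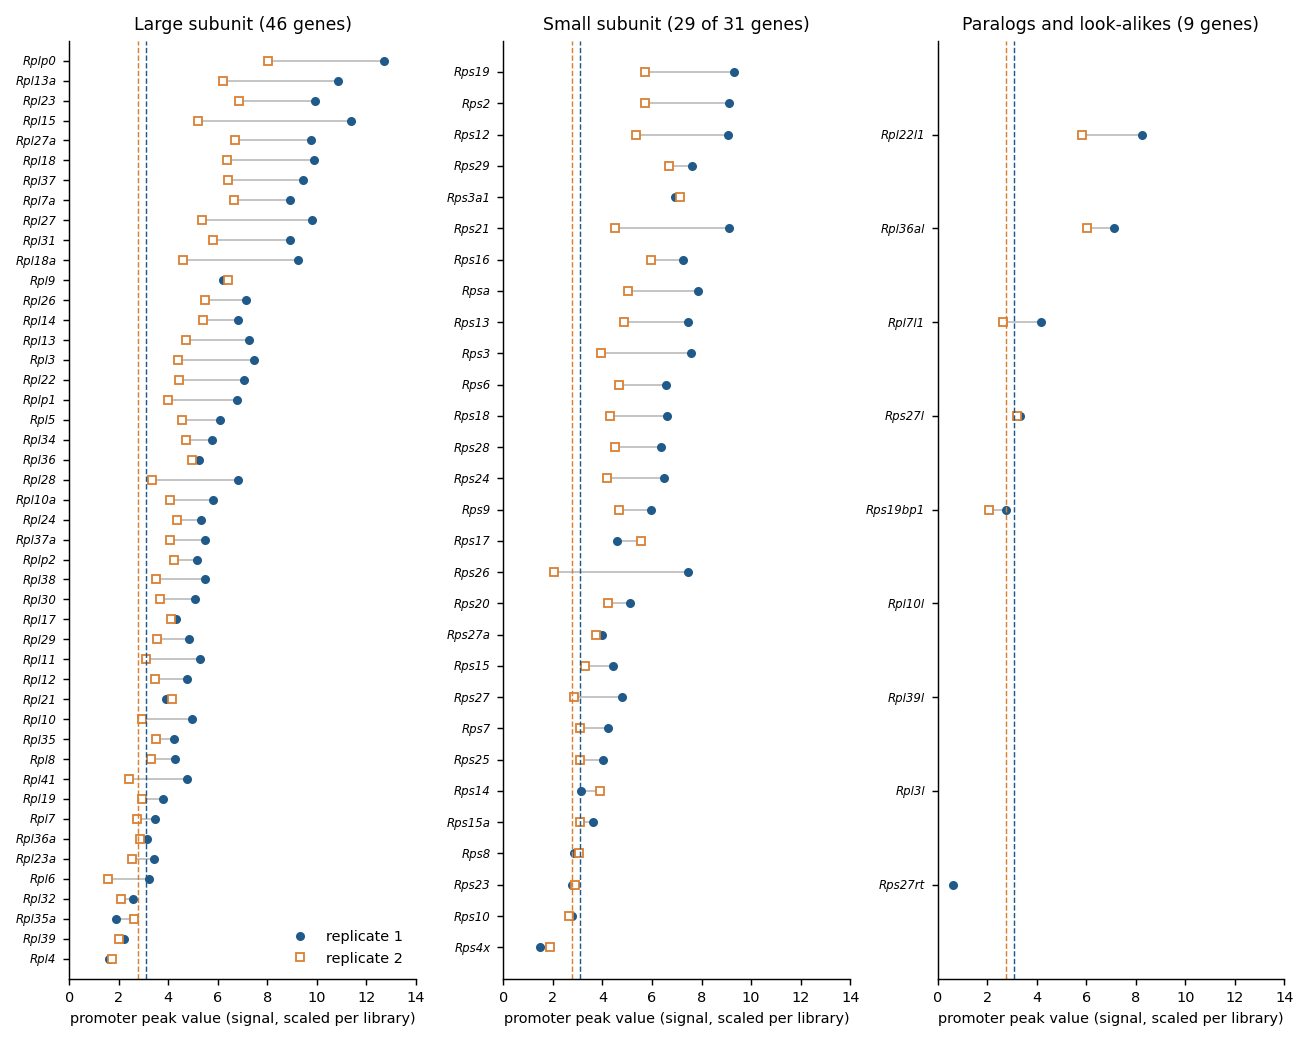
Promoter peak value (x axis, signal scaled per library) of each large subunit gene, small subunit gene and paralog or look-alike (y axis), ordered by mean, with filled circles for replicate 1, open squares for replicate 2 and a grey line between them. Dashed lines give the medians of all protein-coding genes with a promoter peak (3.10 and 2.78), and rows without markers had no peak, and 2 small subunit genes are not plotted. Rplp0 is highest at 12.7 and 8.01, and replicate 1 is the higher library in 72 of 82 genes.

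Small subunit genes had medians of 6.5 and 4.29 (31 genes), and 27 and 28 of them lay above the median of all genes. Rps19, which is mutated in Diamond-Blackfan anemia in humans, had 9.29 and 5.71 (7.5 ± 2.54, SD, n = 2), and Rps2 had 9.11 and 5.71. Of the 77 genes of both subunits 14 are on chromosome 7, and the share of all protein-coding genes there was not counted. Rps3a1 had 6.93 and 7.11 (7.02 ± 0.125, SD, n = 2), the highest small subunit value in replicate 2. Rpsa, also known as the laminin receptor precursor, had 7.87 and 5.05, and Rps6, the substrate of the S6 kinases below mTORC1, had 6.57 and 4.68. Rps27a, whose protein is made as a fusion to ubiquitin, had 3.96 and 3.75. Rps4x was lowest in each library, with 1.46 and 1.87 (1.66 ± 0.289, SD, n = 2), followed by mean by Rps10 with 2.77 and 2.65 and Rps23 with 2.79 and 2.88.

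The 4 X-linked members, Rpl10, Rpl36a, Rpl39 and Rps4x, had medians of 2.68 and 2.43, against 6.09 and 4.29 over the 73 autosomal subunit genes. Rpl10 had 4.95 and 2.93, and Rpl36a had 3.14 and 2.86. Over all X-linked protein-coding genes with a peak the medians were 1.70 and 1.43, and over all autosomal ones 3.17 and 2.83. The X-linked members thus lay below most autosomal subunit genes and above the median of the X chromosome, where Rps4x was below it in replicate 1 and above it in replicate 2.

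Replicate 1 exceeded replicate 2 in 72 of the 82 genes with a peak in both libraries (87.8%, against 73.7% of all protein-coding genes). The median ratio of replicate 1 to replicate 2 was 1.36, against 1.23 over all genes, a ratio that rests on the unstated scale of each library. Rps26 had the largest ratio, 3.66, with 7.44 in replicate 1 and 2.03 in replicate 2 (4.73 ± 3.82, SD, n = 2). Rpl15 followed with 2.20 and Rpl6 with 2.09. The smallest ratios were those of Rpl35a at 0.728, Rps4x at 0.781 and Rps14 at 0.803, where Rps14 had 3.13 and 3.90.

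The paralogs and look-alikes divided into accessible and inaccessible promoters. Rpl22l1, a paralog of Rpl22, had 8.24 and 5.82 (7.03 ± 1.71, SD, n = 2), above Rpl22 itself with 7.05 and 4.43. Rpl36al, an autosomal paralog of the X-linked Rpl36a, had 7.14 and 6.03 (6.58 ± 0.785, SD, n = 2), against 3.14 and 2.86 for Rpl36a, and its promoter is shared with Mgat2, a glycosyltransferase gene that starts 74 bp away. Rpl7l1, a factor in large subunit maturation, had 4.16 and 2.64 (3.4 ± 1.07, SD, n = 2). Rps27l, a paralog of Rps27 induced by p53, had 3.31 and 3.21 (3.26 ± 0.0695, SD, n = 2), and Rps19bp1, which encodes a protein that binds Rps19, had 2.75 and 2.09 (2.42 ± 0.464, SD, n = 2). Rpl3l, the paralog of Rpl3 in heart and skeletal muscle, and Rpl10l and Rpl39l, which are known from male germ cells, had no promoter peak, no footprint and no listed accessible base within 1 kb of the main start in either library. Their broadly expressed counterparts had peaks: Rpl3 with 7.47 and 4.38, Rpl10 with 4.95 and 2.93, and Rpl39 with 2.23 and 2.00. None of the 31-mers in the 250 bp on either side of the starts of Rpl3l and Rpl39l occurs again in the genome, and for Rpl10l the share was 0% upstream and 21.8% downstream. Rps27rt, a retrogene copy of Rps27, had a weak peak in replicate 1 only, at 0.628 with 3 footprints, whose middle lay at -431.5 bp from the start. In the 250 bp after its start 100% of the 31-mers occur elsewhere in the genome. In the 250 bp before the start and within the peak itself the share was 0%.

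Copies of these genes elsewhere in the genome can compete for reads, so the repeated share of 31-mers was computed for the subunit genes. In the 250 bp upstream of the start the median share was 0% and 13 of 77 genes had any, up to 51.8% at Rps29. In the 250 bp downstream, where processed pseudogenes match the message, the median was 4.09% and 56 of 77 had any. Within the strongest peaks the medians were 0% in replicate 1 and 2.38% in replicate 2. The labels do not say how reads with several matches were placed, and the effect on the values was not tested.

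Pseudogenes with -ps symbols rarely carried a peak at their own start. Of 283 such copies, 17 had one in replicate 1 (6.01%), 10 in replicate 2 (3.53%) and 9 in both (3.18%), against 5.82%, 3.64% and 2.85% of all 10236 processed pseudogenes. The strongest in replicate 2 was at Rpl38-ps1, with 3.75 and 3.30, which lies more than 2 kb from any protein-coding start. Rpl29-ps2 had 4.99 and 2.42 but lies within 2 kb of one.

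Strongest peaks were centred slightly upstream of the main start. Their middle lay at a median of -39.5 bp in replicate 1 and -20.5 bp in replicate 2 over all members with a peak, against -45.5 and -33.5 bp over all genes. The main start lay inside the strongest peak in 79.5% and 84.1% of members, against 57.1% and 60.6% of all genes with a peak. A single promoter peak was found at 50.6% and 64.6% of members, against 41.5% and 47.7%, and median peak width was 220 and 240 bp, against 220 and 249 bp. Of the 77 subunit genes 58 and 60 had the middle within 100 bp of the main start, and 7 in each library had it over 200 bp away. Such counts were not made over all genes. The interquartile range of the middle was -72.5 to 8.5 bp in replicate 1 and -66.5 to 23.5 bp in replicate 2. Over all genes with a peak it was -126.5 to 20.5 bp and -117.6 to 54 bp. For some of the subunit genes with a distant middle the annotated starts differ. At Rpl35 the middle lay 443.5 bp downstream in both libraries, and the RefSeq gene model starts 493 bp downstream of the GENCODE main start. For Rps25 the middle lay at 491.5 and 351.5 bp and the RefSeq start at 575 bp, and for Rps10 at 244.5 and 274.5 bp with the RefSeq start at 301 bp. Over the subunit genes 24 RefSeq starts lay within 10 bp of the main start and 22 more than 100 bp from it, which was not counted over all genes. Bases listed by the authors at an FDR under 0.05 covered a median of 784 and 822 bp of the 1 kb on either side of the main start, against 699 and 736 bp over all genes with a peak, and at an FDR under 0.001 it was 571 and 588 bp against 481 and 504 bp.

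Neighbouring genes share some of these promoters. A start of another protein-coding gene lay within 1 kb at 17 members (19.8%, against 12.9% of all protein-coding genes). It lay on the opposite strand at 16 (18.6%, against 11.4%), and the other is RPS10-NUDT3, a readthrough locus of Rps10. Opposite-strand partners included Ndufa7 at 10 bp from Rps28, Lrsam1 at 33 bp from Rpl12 and Rab13 at 44 bp from Rps27. The medians of the 17 were 6.21 and 4.29, against 5.61 and 4.19 over members with a peak and no such partner. The strongest peak was nearest to the member's own start in 75 of 82 genes in replicate 1 (91.5%, against 90.7% of all genes with a peak in both libraries) and 74 in replicate 2 (90.2%, against 90.6%). Subunit genes that hold a snoRNA (30 genes) had medians of 7.09 and 4.46, and the 47 without one had 5.47 and 4.07, so the snoRNA hosts stood higher in each library by less than the interquartile range of either set.

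Footprints were found at nearly every subunit gene. Within 1 kb of a start 83 of 86 members had a footprint in replicate 1 against 60.6% of all protein-coding genes, 80 in replicate 2 against 57.5%, and 80 in both against 56%. Those shares include genes without a promoter peak. Of genes with a peak, 0 of 83 members and 618 of 13859 genes had no footprint in replicate 1. In replicate 2 it was 2 of 82 members and 617 of 13192 genes. A footprint of one library overlapped one of the other by at least 1 bp in 78 members, against 50% of all genes. Among genes with a peak in both libraries the shares were 95.1% of members and 84.8% of all. The median number per gene with a peak was 5 in replicate 1 and 4 in replicate 2, the same as over all genes with a promoter peak, and the means were 5.83 and 4.29, against 5.28 and 4.33. By the mean of both libraries Rps19 had most, with 15 and 9, followed by Rpl7 with 15 and 5 and Rpl38 with 10 and 8. In single libraries others stood as high or higher, such as Rps27a with 14 in replicate 1 and Rps14 with 9 in replicate 2. Rpl7 therefore had many footprints at a promoter value near the median of all genes (3.45 and 2.73), spread over 4 peaks in replicate 1 and 3 in replicate 2. Rpl6 had 3 footprints and Rpl35a 4 in replicate 1 and none in replicate 2, and Rpl12 and Rpl32 had footprints in both libraries, none of which overlapped.

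Footprints covered more of the subunit promoters around the start than of other accessible promoters, in every 50 bp stretch from -200 to 199 bp in both libraries. From -50 to -1 bp a base lay under a footprint in 28.2% of the subunit promoters in replicate 1 and 22.6% in replicate 2, averaged over bases, against 19.9% and 15.1% of promoters with a peak in both libraries. In the first 50 bp from the start the shares were 20.6% and 19.0% against 12.7% and 9.30%. From -200 to -151 bp they were 11.7% and 7.90% against 8.01% and 5.18%, and from 100 to 149 bp 5.35% and 4.13% against 2.89% and 2.40%. From -300 to -251 bp they were 2.91% and 1.32% against 3.54% and 2.35%. Of the subunit genes' footprints 50.9% and 59.0% had their middle within 100 bp of the main start, against 43.6% and 45.0%. Their median width was 10 bp in each library, against 10 and 9 bp. These differences were not tested. A larger share of subunit starts lay inside the strongest peak. Subunit promoters also had higher peak values, with medians of 5.80 and 4.21 against 3.10 and 2.78 over all genes with a peak, and the sets were not matched on value. The part of either in these differences cannot be told apart.

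**Figure D3:**
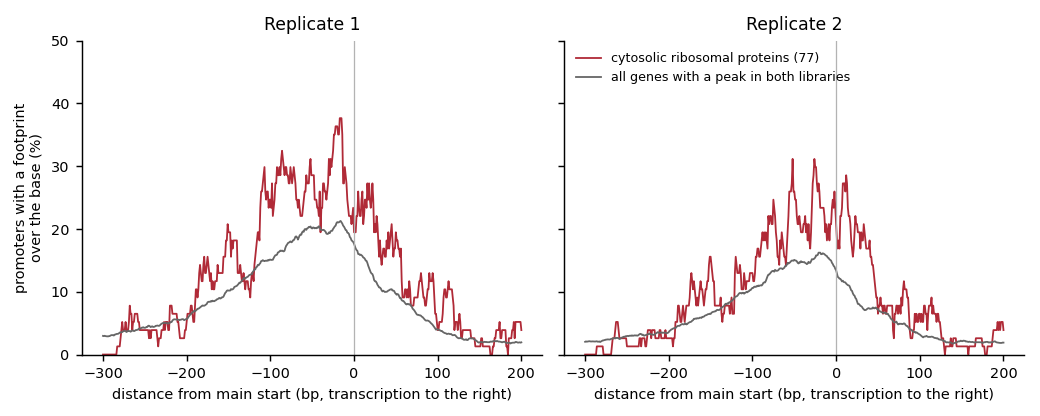
Share of promoters with a footprint over each base (y axis, percent) by distance from the main start (x axis, bp) in replicate 1 (left) and replicate 2 (right), for the 77 subunit genes and for all protein-coding genes with a promoter peak in both libraries. The subunit curve lies higher close to the start (28.2% against 19.9% and 22.6% against 15.1% from -50 to -1 bp) and near the other curve beyond 200 bp upstream.

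Cores of ETS factors were the most frequent difference in sequence. From 250 bases before to 50 bases after the main start, CCGGAAG was present in 27 of 77 subunit promoters (35.1%), against 17.0% of promoters with a peak in both libraries and 11.2% of all protein-coding genes. The shorter CGGAAG was present in 48 (62.3%), against 30.1% and 20.6%. With the paralogs 29 of 86 members held the longer core and 52 the shorter. Small subunit promoters held CGGAAG in 22 of 31 and large subunit promoters in 26 of 46. TCTCGCGA, searched after the data were seen and so chosen with the result in view, was present in 14 (18.2%), against 2.11% and 1.36%. Of these 14 promoters 11 also held CGGAAG, against 48 of all 77 subunit promoters. Among promoters with TCTCGCGA and a peak in both libraries it was 123 of 272, and over all protein-coding genes 129 of 298. CRE cores were present in 7.79% against 3.46% and 2.47%, and YY1 cores in 9.09% against 6.27% and 4.26%. GGGCGG was less frequent than at other accessible promoters (51.9% against 63.6%) and near the share of all (45.4%), and CCAAT was present in 29.9% against 38.3% and 38.5%. TATAAA was found in 10.4% against 7.09% and 12.7%, CACGTG in 13.0% against 9.76% and 7.70%, and GCGCATGCG in 2.60% against 3.51% and 2.51%. Base composition differs too: the same windows had a median GC content of 56.0% against 60.7% at promoters with a peak in both libraries, and a CpG ratio (observed over expected) of 0.856 against 0.762. A match is a string of letters and does not show binding.

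**Figure D4:**
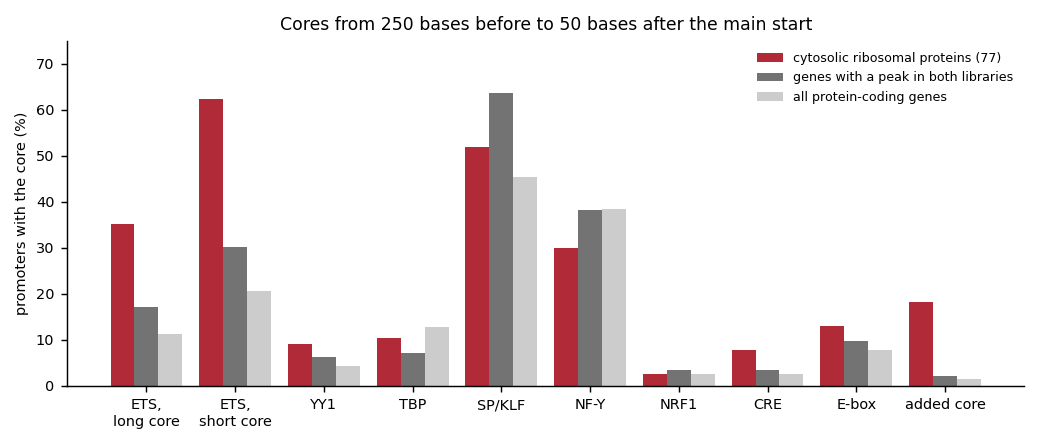
Share of promoters (y axis, percent) that hold each searched core (x axis) between 250 bases before and 50 bases after the main start, for the 77 subunit genes, all genes with a promoter peak in both libraries and all protein-coding genes. TBP and NF-Y stand for the TATAAA and CCAAT cores, and the added core was chosen after the data were seen. The long ETS core is at 35.1%, 17.0% and 11.2%.

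Footprints covered some of these cores more often than others. Of 21 TCTCGCGA matches at subunit genes 14 (66.7%) lay under a footprint in both libraries, against 48.5% of such matches at all promoters with a peak in both, among them those at Rpl7a, Rpl10a, Rpl17, Rpl26, Rps6, Rps15a and Rps28. Copies that overlap as a palindrome count as separate matches there. Of 80 CGGAAG matches 44 lay under a footprint in replicate 1 (55.0%), against 32.9% at all such promoters, and 19 in replicate 2 (23.8%), against 25.3%. In both libraries it was 16 of 80, against 17.9%. For CRE cores it was 5 of 6 in both libraries (83.3% against 79.4%), at Rpl13, Rpl18, Rpl27a, Rps9 and Rps29. NRF1 cores lay under footprints in both libraries in 4 of 4 matches, an overlapping pair each at Rpl10a and Rpl37a, against 82% at all such promoters. Of 9 TATAAA matches 5 did (55.6% against 5.84%), at positions -184 and -30 of Rps2, 18 of Rplp0, 24 of Rpl3 and 38 of Rps28. The TATAAA matches compared lie at different places. Their median distance from the main start was 3 bp at subunit genes and -133 bp at all such promoters. The part of this in the contrast was not tested. Peak values with and without a core differed by core. Subunit genes with a CRE core (6 genes) had medians of 7.45 and 5.92 and those without 5.46 and 4.13. Those with a YY1 core (7 genes) had 3.96 and 3.75, against 6.28 and 4.26. With CCAAT they were 6.80 and 4.52, against 5.25 and 4.00. Subunit genes with CCGGAAG had medians of 6.60 and 4.29 and those without 5.39 and 4.16, and genes with TCTCGCGA had 6.46 and 5.09 against 5.47 and 4.14. With the shorter CGGAAG they were 6.05 and 4.32, against 5.80 and 4.13. GGGCGG gave 6.27 and 4.55 against 5.80 and 4.07, and CACGTG 6.27 and 5.06 against 5.80 and 4.13. For TATAAA it was 5.73 and 4.43 against 5.80 and 4.14. The 2 genes with GCGCATGCG had 5.63 and 4.07 against 5.95 and 4.23. These differences were not tested.

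A polypyrimidine start, C followed by 4 pyrimidines, was read at the annotated starts. It stood at the GENCODE main start of 10 subunit genes (13.0%), against 2.25% of all protein-coding genes, and at the RefSeq start of 13 (16.9%), against 2.54%. Only Rpl32 and Rps21 had it at both, and 21 genes at either. The RefSeq start and the wider reach were added after the data were seen. Within 10 bp of the main start it could be found in 48.1% of subunit genes, against 30.6%. Promoter values of the 13 genes had medians of 6.09 and 4.23, against 5.77 and 4.20 over the other 64. Annotated starts can miss the base at which transcription begins, so these shares describe the annotation, and DNase-seq does not measure the message.

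All genes in the lists around the ribosomal proteins had a promoter peak in both libraries, against 59% of all protein-coding genes. Fau, a fusion of a ubiquitin-like protein to Rps30 that the symbol rule leaves out, had 8.36 and 6.48 (7.42 ± 1.33, SD, n = 2). Mrpl49, counted below among the mitochondrial ribosomal protein genes, had the same values and the same numbers of footprints (7 and 5). Rack1, a signalling scaffold on the small subunit, had 3.75 and 2.71. A peak in both libraries was also found at all 16 translation factors and other genes with TOP messages, with medians of 7.04 and 5.12, led by Eef1g, a subunit of elongation factor 1, at 12.3 and 7.31 (9.80 ± 3.53, SD, n = 2) and Npm1, a nucleolar chaperone, at 11.3 and 7.69 (9.51 ± 2.58, SD, n = 2). All 32 ribosome biogenesis genes had one, with medians of 4.62 and 3.47, led by Rrp9, which binds U3 snoRNA, at 12.3 and 7.22 and Nop56, a core protein of box C/D snoRNPs, at 10.4 and 7.57. All 15 genes of mTORC1 and of TOP message control had one, with medians of 6.15 and 3.87, led by Akt1s1 (13.7 and 7.86) and Rheb, the GTPase that activates mTORC1 (11.1 and 6.78). Of the 15, 11 lay above the median of all genes with a peak in each library. Larp1 (2.43 and 1.55), Eif4ebp1 (1.14 and 0.949), Tsc2 (2.31 and 2.64) and Myc (1.86 and 2.10) lay under it in both. All 7 genes of factors known at ribosomal protein promoters had one, led by Sp1 at 15.3 and 6.76 and Yy1 at 7.91 and 5.58. Of the 7, 6 lay above the median of all genes in replicate 1. Gabpa (4.26 and 2.78) stood at that median in replicate 2, and Gabpb1 lay under it in both libraries at 2.62 and 2.73. All 78 mitochondrial ribosomal protein genes had one too, at medians of 3.73 and 3.23, led by Mrpl17 at 15 and 11.5 and Mrps18b at 13.0 and 6.77. By median, the cytosolic subunit genes (5.80 and 4.21) lay above the mitochondrial ones and the biogenesis genes and below the TOP translation factors in both libraries, with interquartile ranges that overlap in each case.

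**Figure D5:**
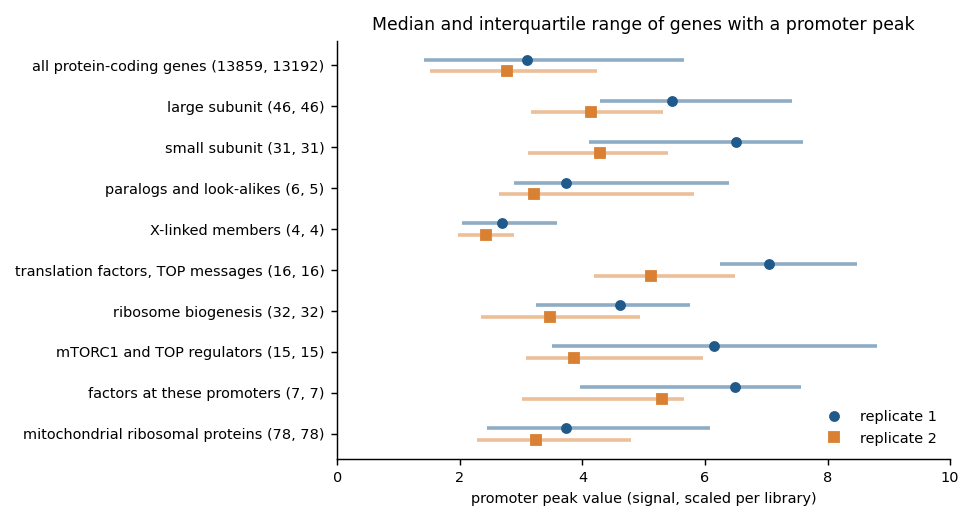
Median (symbols) and interquartile range (bars) of promoter peak values (x axis, signal scaled per library) in replicate 1 (circles) and replicate 2 (squares) for groups of genes (y axis), with the number of genes with a peak in each library in brackets. TOP translation factors (7.04 and 5.12) lie above the subunit genes, and X-linked members (2.68 and 2.43) and all protein-coding genes (3.10 and 2.78) below.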

How the data were processed

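Peaks, footprints and FDR lists were deposited by the authors per library on mm10 (GRCm38), per the labels; aligner, callers and handling of CAST/EiJ alleles were not given in the sources used here. The deposited peak value is a signal; its scale is not stated, and values below 1 are whole multiples of a fixed step in each library. The deposited FDR lists hold q-values and list only bases under 0.05. Only positions were taken from the footprint lists. The longer peak list of each library was used.

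Starts came from GENCODE M21 and sequence from RefSeq GRCm38.p6. The window was 1 kb on either side of every protein-coding start, the main start being that of the APPRIS principal transcript, then the best supported one. Overlaps needed at least 1 bp. Members and lists were chosen with earlier results of these data known, so no p-value was computed. Named genes were members without a peak in a library, the 8 highest and 5 lowest by mean value, the 3 highest and 3 lowest ratios, the 3 with most footprints, all paralogs, and the 2 highest genes of each list; other names were chosen after their values were seen. Alternatives were shorter peak lists, other windows, main starts only, equal peak numbers, summed values, longer footprints and each replicate left out. Functions were tested on simulated data. Python 3.11.15, NumPy 2.4.6, pandas 2.3.3 and matplotlib 3.10.9 were used. Some items are not reported here.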

Additional observations from a re-analysis of the deposited data

How the results depend on the processing

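The number of genes with a promoter peak in both libraries (82) was 77 to 83 over 9 alternatives, the lowest being the count without the 9 paralogs and look-alikes; with the shorter peak lists it was 81, Rpl23a having no peak in the shorter list of replicate 2. With a single library it was 82 to 83. The median value (mean of both libraries 4.97) was 4.20 to 5.75 with a single library. The median percentile (75.1) was 72.6 with the shorter lists, 76.4 with a window of 2.5 kb, 74.1 with equal numbers of peaks and 69.7 with the values of all promoter peaks summed, moves larger than the SD between libraries, and 74.6 to 75.6 with a single library. The median number of footprints (4.5) fell to 2.5 with footprints of 10 bp or more only, which keeps fewer of them, and 74 members then had a footprint in both libraries against 80. With a reciprocal overlap of 50%, 71 members had a shared footprint against 78. The longer ETS core was found at 29 members and at 25 with a window of 100 bp before the start, at 29 with RefSeq starts, and the shorter core, whose use in place of the longer one for this count was added after the data were seen, at 52. The peak middle stayed at -30 to -31 bp. No paired analysis was possible because there is 1 group.

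The labels do not say whether the 2 libraries came from different animals. Peak values and ratios between libraries rest on an unstated scale. Read depth is not stated. Motif and start positions depend on the annotated start.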
